A study of Mus musculus with 16 samples.

Results

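The 10 genes described here encode chaperones and proteases that fold, sort and remove proteins inside mitochondria. They are Hspa9, Hspd1, Hspe1 and Trap1 among the chaperones and Lonp1, Clpp, Clpx, Htra2, Yme1l1 and Afg3l2 among the proteases and their subunits. They were taken by name from a list given for this work, by a rule that uses no measured value, but the list was drawn up with earlier results of these data known. All 10 were found among the 53714 genes counted in mouse liver, and all 10 were among the 13905 genes with enough reads to be tested. The list was called matrix chaperones and proteases, but Htra2 works in the intermembrane space, Yme1l1 faces that space from the inner membrane, and Afg3l2 faces the matrix from the inner membrane.

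RNA libraries were sequenced from liver of male mice aged 9 weeks, 16 in all and 4 in each of 4 groups. The strain label of all 16, controls included, was C57BL/6 Slc25a47tm1c(EUCOMM)Hmgu, which names a conditional allele of Slc25a47, a carrier of the mitochondrial inner membrane found mainly in liver. The genotype was Slc25a47hep-/- (KO below) or Slc25a47hep+/+ (WT below). Mice of each genotype had eaten chow (fed) or had been left without food overnight (fasted), and groups are named by feeding and genotype, such as fed KO. The Cre driver behind the hepatocyte label is not given in the sources used here, and neither is whether the controls carried Cre. The labels do not say in so many words that each library came from its own mouse, so p-values measure the spread between these libraries.

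Most mitochondrial proteins are made in the cytosol, threaded through the import pores unfolded and then folded inside. The Hsp70 of the matrix pulls them in, the Hsp60 chamber with its Hsp10 lid folds many of them, and ATP-driven proteases cut up those that fail to fold or are damaged. When folding in the matrix is disturbed, cells are known to raise the transcripts of some of these chaperones and proteases through the factors ATF5, ATF4 and CHOP, a programme named the mitochondrial unfolded protein response. In liver, fasting shifts mitochondria toward the burning of fatty acids and the making of ketone bodies.

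Promoter sequences were looked up because the members moved apart from each other. The 4 shown each hold a motif match. They come from a gene that differed strongly between genotypes and from genes that differed less or not at all. RefSeq windows of build GRCm38.p6, from 250 bases before to 50 bases after a start site, were found for 7 of the 10 genes (8 windows, with 2 for Hspd1). The windows are those of Lonp1 at chr17:56626854-56627153 on the minus strand, Hspe1 at chr1:55087898-55088197 on the plus strand, Trap1 at chr16:4077761-4078060 on the minus strand and Clpp at chr17:56990014-56990313 on the plus strand. Each runs 5′ to 3′ along its gene, and capitals mark the motif matches described next.
Lonp1: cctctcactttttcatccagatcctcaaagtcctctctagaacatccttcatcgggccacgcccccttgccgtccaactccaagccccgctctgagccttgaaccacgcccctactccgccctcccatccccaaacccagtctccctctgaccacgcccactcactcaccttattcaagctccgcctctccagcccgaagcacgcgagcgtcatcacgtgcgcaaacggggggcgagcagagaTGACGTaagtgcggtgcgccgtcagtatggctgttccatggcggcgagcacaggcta
Hspe1: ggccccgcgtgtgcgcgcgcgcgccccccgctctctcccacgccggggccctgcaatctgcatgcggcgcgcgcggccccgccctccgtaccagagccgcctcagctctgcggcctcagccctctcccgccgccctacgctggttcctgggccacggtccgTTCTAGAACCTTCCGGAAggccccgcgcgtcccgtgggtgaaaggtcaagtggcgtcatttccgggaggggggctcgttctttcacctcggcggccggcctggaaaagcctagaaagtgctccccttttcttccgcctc
Trap1: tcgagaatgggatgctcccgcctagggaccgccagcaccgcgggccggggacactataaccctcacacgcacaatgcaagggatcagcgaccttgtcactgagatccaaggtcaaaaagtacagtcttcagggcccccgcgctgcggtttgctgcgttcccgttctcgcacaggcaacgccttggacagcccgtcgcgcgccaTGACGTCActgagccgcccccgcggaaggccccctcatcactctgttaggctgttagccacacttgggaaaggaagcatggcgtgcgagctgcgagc
Clpp: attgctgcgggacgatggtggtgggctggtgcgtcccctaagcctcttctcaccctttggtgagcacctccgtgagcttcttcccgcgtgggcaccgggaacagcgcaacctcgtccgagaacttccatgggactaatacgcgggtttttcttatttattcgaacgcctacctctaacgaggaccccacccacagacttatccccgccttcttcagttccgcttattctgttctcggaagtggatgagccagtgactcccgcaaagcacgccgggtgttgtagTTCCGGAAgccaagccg
In all, 3 motifs were searched on both strands. The core of the heat shock element, written GAANNTTC or TTCNNGAA, reads as its own kind on both strands, so overlapping matches were counted separately. It was matched at 3 overlapping places in the Hspe1 window, starting at positions -89, -84 and -79 from the start site, which together make the run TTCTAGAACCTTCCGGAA. One of the Hspd1 windows, chr1:55087883-55088182 on the minus strand, covers the same stretch in reverse, because Hspd1 and Hspe1 start head to head. Clpp had a single match starting at position 33. Of the 32851 windows in the RefSeq table, 15.1% hold this core. The letters TGACGT, part of the sites of ATF and CREB factors, was added to the search after the sequences had been seen. It was matched at position -7 of Lonp1 and, on both strands of an overlapping stretch, at -47 and -45 of Trap1, and 7.51% of all windows hold it. The core of the amino acid response element, TGATGNAA, was matched in none of the 8 windows, and 3.97% of all windows hold it. The windows of Clpx and Yme1l1 and the other Hspd1 window, which are not shown, held no match to any of the 3 motifs. No window was found for Hspa9, Htra2 and Afg3l2. These matches are letters in a window and were not tested as sites.

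The gene totals ran from 19.61 to 27.35 M reads per library. Reads aligned to several places made up 40.4% to 45.8% of all counts in WT and 32.0% to 39.3% in KO libraries. The targeted gene Slc25a47 stood at 637 ± 154 CPM (SD, n = 4) in WT and 126 ± 32.3 CPM in KO mice on chow, and at 949.5 ± 129 and 261 ± 77.2 CPM in WT and KO mice after the fast, where CPM is a gene's reads relative to all reads in genes, scaled between libraries by the trimmed mean of M values (TMM). The labelled tissue was checked against 10 hepatocyte markers, none of which was at 0, and their summed level ran from 103100 to 152400 CPM over all libraries. Fasted WT replicates 2 and 4 stood apart in pancreatic transcripts, with a sum of 1970 and 547 CPM over 18 acinar markers against at most 84.95 CPM in any other library, so results that rest on fasted WT are also given without these libraries. RNA from a whole piece of liver cannot tell fewer cells of a type from less RNA per cell.

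Levels differed widely among the members. Genes were set against each other per kilobase of exon, with all annotated exons of a gene counted as its length. It exceeded the longest coding transcript unequally, at 9874 against 3094 bases for Afg3l2, 4310 against 3049 for Hspa9 and 2642 against 2423 for Hspd1. The order of the genes, and where it changed, depends on this choice of length. On this scale the fed WT means were highest for Hspd1 (133 CPM per kb) and Hspa9 (121.5 CPM per kb). They were lowest for Afg3l2 (6.08 CPM per kb) and Htra2 (3.39 CPM per kb). Between these came Clpx (98.1 CPM per kb), Trap1 (73.3), Hspe1 (37.5), Lonp1 (28.6), Clpp (26.4) and Yme1l1 (15.9). In fed WT the neighbours Hspe1 and Lonp1, and Lonp1 and Clpp, overlapped in their ranges, and every other pair of neighbours was separate. In fed KO the order changed at 2 places: Hspa9 (273 CPM per kb) stood above Hspd1 (192 CPM per kb), and Lonp1 (89.9 CPM per kb) moved up to between Clpx (94.0) and Trap1 (77.9), with overlapping ranges to both. In fasted WT Lonp1 (24.3 CPM per kb) overlapped with Clpp (31.0 CPM per kb), and Hspd1 (151 CPM per kb) with Hspa9 (138.5 CPM per kb). In fasted KO Hspa9 (240.1 CPM per kb) was again the highest, and Lonp1 (62.2 CPM per kb) overlapped only with Trap1 (65.8 CPM per kb). The levels of the 10 members added up to 1818 ± 56.1 CPM in fed WT and to 2895 ± 234 CPM in the fed KO group (SD, n = 4). After fasting the sums were 1858 ± 140 CPM (WT) and 2640 ± 217 CPM (KO).

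**Figure D1:**
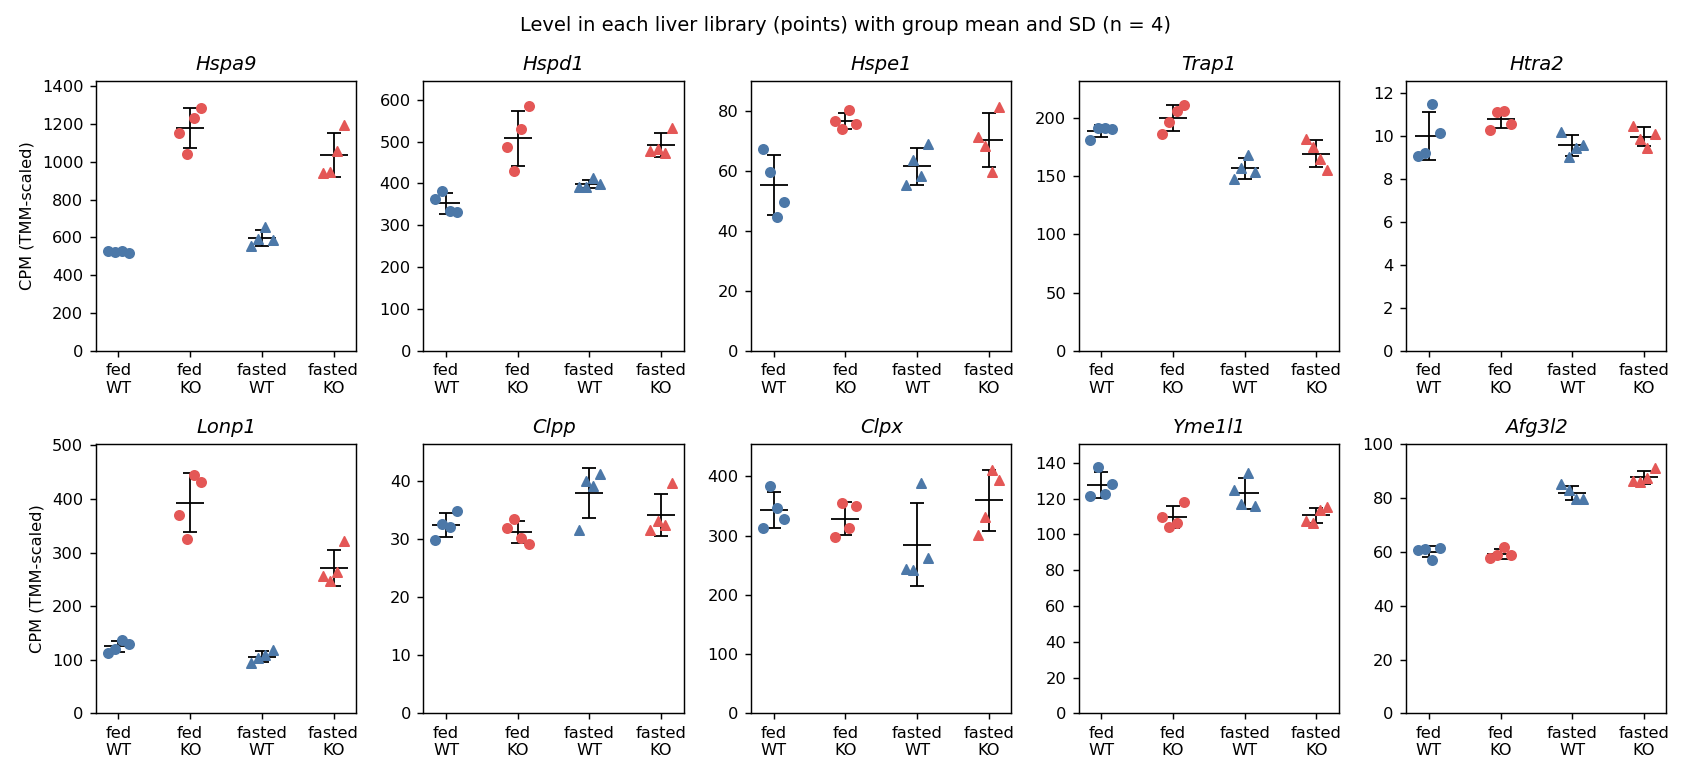
Level of each of the 10 genes in CPM after TMM scaling (vertical axis, starting at 0) in the 4 groups, with 1 point per library in the order of its replicate number, and the group mean with its SD (n = 4). Lonp1 and Hspa9 stand far higher in both KO groups than in both WT groups, while Afg3l2 stands higher in both fasted groups.

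In fed liver, 4 of the 10 genes were higher in KO than in WT and 1 was lower. The higher ones were Lonp1, Hspa9, Hspd1 and Hspe1, and the lower one was Yme1l1. The test was the quasi-likelihood F test of edgeR, and a gene was called at a Benjamini-Hochberg adjusted p under 0.05. Among all genes 30.9% were called, 14.0% higher and 16.9% lower. In fasted liver the genes called were Lonp1, Hspa9 and Hspd1, all higher in KO, and none was lower. The share of all genes called there was 28.3%, with 13.8% higher and 14.5% lower. The median log2 fold change of the 10 members was 0.10 in fed and 0.15 in fasted liver, and that of all genes tested was -0.0083 and 0.011. The 5 members not called in fed liver had log2 fold changes between -0.06 and 0.11.

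**Figure D2:**
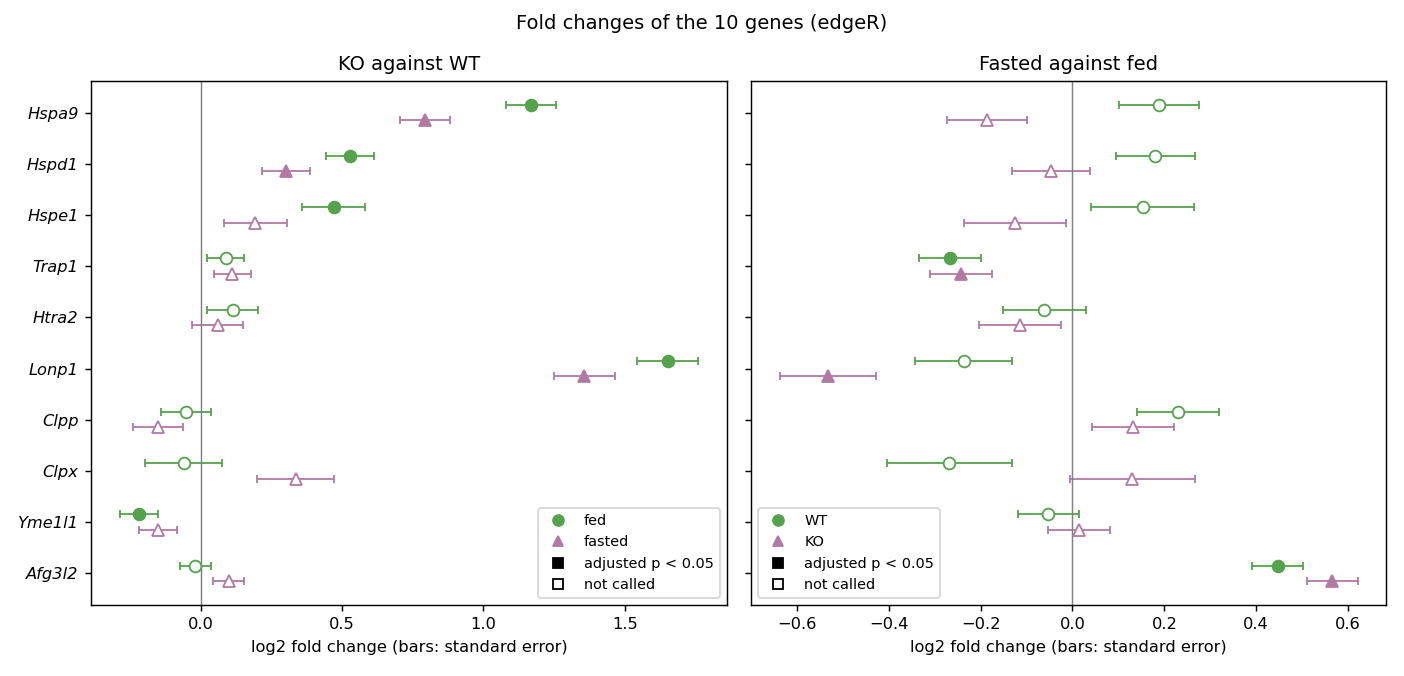
The log2 fold changes of the 10 genes between genotypes (left) and between feeding states (right), with bars for the standard error from the edgeR fit over 16 libraries; filled symbols were called at an adjusted p under 0.05. The left panel shows Lonp1 and Hspa9 far to the right of the other members, and the right panel shows Afg3l2 as the only member called higher on fasting, in both genotypes.

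Hspa9 is the Hsp70 of the matrix, the motor subunit that draws proteins through the inner membrane and helps them fold (ENSMUSG00000024359, GRCm38 chr18:34937414-34954357, minus strand). Fed WT libraries 1 to 4 had 529, 523, 527 and 516 CPM, and fed KO libraries had 1154, 1041, 1232 and 1283 CPM. All 4 fed KO libraries lay far above the WT range, and the WT values lay within a narrow band. The log2 fold change was 1.17 ± 0.088 (SE), a 2.25-fold higher level (edgeR adjusted p = 2.43e-08), and 3.20% of the genes tested had a higher one. Fasted WT libraries had 553, 589.5, 657 and 588 CPM and fasted KO libraries 941, 947, 1059 and 1192 CPM. The ranges were again separate, with a log2 fold change of 0.79 ± 0.087 (1.73-fold, adjusted p = 3.32e-06) that was 0.77 (adjusted p = 0.000283) without fasted WT replicates 2 and 4.

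Hspd1 is the Hsp60 subunit that forms the folding chamber of the matrix (ENSMUSG00000025980, chr1:55077835-55088243, minus strand). Its levels were 362, 381.5, 334 and 331 CPM in fed WT and 487, 429, 530.4 and 584 CPM in fed KO. No fed KO library reached down into the WT range, and the log2 fold change was 0.53 ± 0.085 (1.44-fold, edgeR adjusted p = 0.000154). In fasted liver the values were 392, 392, 414 and 399 CPM in WT and 478, 482, 473 and 534 CPM in KO. The groups were separate, the WT libraries lay close together, and the log2 fold change was 0.30 ± 0.085 (1.23-fold, adjusted p = 0.0127). Without fasted WT replicates 2 and 4 it was 0.29 with an adjusted p of 0.0771, so the call for fasted liver was lost with fewer libraries at almost the same value.

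Hspe1 is the Hsp10 lid that closes that chamber (ENSMUSG00000073676, chr1:55088132-55091307, plus strand). It had 67.3, 59.4, 44.6 and 49.7 CPM in fed WT and 76.6, 73.7, 80.1 and 75.5 CPM in fed KO. The fed KO libraries were close together and above all WT libraries, which spread more widely, and the log2 fold change was 0.47 ± 0.11 (1.39-fold, edgeR adjusted p = 0.00398). In fasted liver it had 55.1, 63.5, 58.1 and 68.9 CPM in WT and 71.2, 68.3, 59.7 and 81.3 CPM in KO, which overlapped, with a log2 fold change of 0.19 ± 0.11 (adjusted p = 0.216). Hspd1 and Hspe1 lie head to head on opposite strands, and their gene models share 112 bp at the start sites whose promoter letters are shown above for Hspe1.

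The levels of this chaperonin pair carry an uncertainty of their own. Of the 50-base stretches of the longest coding transcript of Hspd1, 44.8% also occur in transcripts of other genes, and for Hspe1 it is 36.1%. For Hspa9 that share was 4.10%, for Clpx 1.55% and for Yme1l1 0.773%, and for the other members it was 0. The 5 named Hspd1 pseudogenes held 335 counts over the 16 libraries against 159627 for Hspd1, and the 6 Hspe1 pseudogenes held 0 against 23991 for Hspe1. Reads that fit several places stood outside the gene counts, and their share was lower in KO libraries, so how many of them belonged to Hspd1 and Hspe1 was not tested.

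Trap1 is the Hsp90 of mitochondria (ENSMUSG00000005981, chr16:4039971-4077827, minus strand). Its levels were 181, 192, 191 and 190.4 CPM in fed WT and 187, 197, 206.5 and 212 CPM in fed KO, which overlapped. The genotype difference did not pass the test in fed (0.09 on the log2 scale, edgeR adjusted p = 0.338) or fasted liver (0.11, adjusted p = 0.231). Among the chaperones it thus stood near the median of all genes, and its fasting difference is given further on.

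Lonp1, the ATP-driven protease that degrades damaged and unassembled proteins in the matrix, had the largest genotype difference of the 10 genes (ENSMUSG00000041168, chr17:56614297-56626887, minus strand). In fed WT it had 113, 121, 138 and 129 CPM, and in fed KO 371, 326, 444 and 431 CPM. All 4 fed KO libraries lay far above the WT range. The log2 fold change was 1.65 ± 0.11, a 3.14-fold higher level (edgeR adjusted p = 5.14e-09), and 1.78% of the genes tested had a higher one. In fasted WT it had 94.2, 103, 109.7 and 117.5 CPM, and in fasted KO 256, 246, 264 and 321.5 CPM. These groups were separate as well, at 1.36 ± 0.11 on the log2 scale (2.56-fold, adjusted p = 6.36e-08), with 2.19% of genes higher. Without fasted WT replicates 2 and 4 the value was 1.42 (adjusted p = 8.55e-06).

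Clpp, the peptidase barrel of the second large matrix protease (ENSMUSG00000002660, chr17:56990305-56996188, plus strand), did not pass the test between genotypes. It had 29.9, 32.5, 32.1 and 34.9 CPM in fed WT and 31.9, 33.4, 30.2 and 29.1 CPM in fed KO, and the ranges overlapped (log2 fold change -0.05, edgeR adjusted p = 0.688). In fasted liver it had 31.5, 39.9, 39.2 and 41.1 CPM in WT and 31.5, 33.1, 32.4 and 39.5 CPM in KO (-0.15, adjusted p = 0.220). The ranges of the 2 genotypes overlapped in both feeding states.

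Clpx, the unfoldase that feeds proteins to Clpp (ENSMUSG00000015357, chr9:65294260-65330658, plus strand), had 313, 383, 347 and 329 CPM in fed WT and 297, 354.5, 313 and 349.6 CPM in fed KO, which overlapped (log2 fold change -0.06, edgeR adjusted p = 0.761). In fasted WT it had 244, 243, 389.6 and 263 CPM, and in fasted KO 301, 332, 412 and 394 CPM. Replicate 3 of fasted WT lay inside the KO range, and the other 3 WT libraries lay below it. The log2 fold change was 0.34 ± 0.14 and did not pass (adjusted p = 0.0744), but without fasted WT replicate 3 it was 0.53 (adjusted p = 0.00168), and without replicates 2 and 4 it was 0.18 (adjusted p = 0.465). The result for Clpx in fasted liver therefore turned on which fasted WT libraries were kept.

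Yme1l1, the inner membrane protease whose active site faces the intermembrane space (ENSMUSG00000026775, chr2:23156369-23199260, plus strand), was the only member called lower in KO. It had 122, 138, 122.5 and 128 CPM in fed WT and 109.7, 104, 107 and 118 CPM in fed KO, with no overlap and a log2 fold change of -0.22 ± 0.067 (edgeR adjusted p = 0.0180). The gap between the groups was small, and the call was lost without fed WT replicate 2 (-0.18, adjusted p = 0.0628), without fed KO replicate 3 (-0.21, adjusted p = 0.0536) and in a fit of the 8 fed libraries alone (-0.20, adjusted p = 0.0578). In fasted liver it had 125, 117, 134 and 116 CPM in WT and 107.5, 106, 114 and 115 CPM in KO, again separate, at -0.15 ± 0.067 (adjusted p = 0.0944). Without fasted WT replicates 2 and 4 that value was -0.23 (adjusted p = 0.0472).

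Afg3l2, the inner membrane protease that faces the matrix (ENSMUSG00000024527, chr18:67404764-67449172, minus strand), had 60.9, 61.1, 56.9 and 61.4 CPM in fed WT and 57.8, 58.7, 61.8 and 58.7 CPM in fed KO. These values overlapped, with a log2 fold change of -0.02 (edgeR adjusted p = 0.808). In fasted liver it had 85.3, 82.9, 79.8 and 79.5 CPM in WT and 86.3, 86.0, 87.4 and 91.1 CPM in KO. All 4 fasted KO libraries were above the WT range, but the difference of 0.10 was too small for the test (adjusted p = 0.193).

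Htra2, a serine protease of the intermembrane space (ENSMUSG00000068329, chr6:83051266-83055273, minus strand), had the lowest level, between 9.04 and 11.5 CPM over all 16 libraries. It did not pass the test between genotypes in fed (0.11, edgeR adjusted p = 0.360) or fasted liver (0.06, adjusted p = 0.666). Its gene model overlaps Aup1 by 753 bp and Loxl3 by 1297 bp on the opposite strand. The counting's strand setting is not given in the sources used here, and Aup1 held 42402 counts over the 16 libraries against 3651 for Htra2, so its level is uncertain.

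The comparison of fasted with fed liver named other members. In WT mice, Afg3l2 rose and Trap1 fell, beside 34.5% of all genes tested that were called with fasting (16.2% higher, 18.3% lower). In KO mice, Afg3l2 rose and Lonp1 and Trap1 fell, beside 41.4% of all genes (21.1% higher, 20.3% lower). The median log2 fold change of the members was 0.05 in WT and -0.08 in KO, against -0.019 and -0.0044 for all genes tested.

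Afg3l2 was higher after fasting in both genotypes. Its fed libraries lay between 56.9 and 61.8 CPM and its fasted libraries between 79.5 and 91.1 CPM in both genotypes together, with no overlap. The log2 fold change was 0.45 ± 0.055 in WT (edgeR adjusted p = 4.29e-06) and 0.57 ± 0.055 in KO (adjusted p = 2.95e-07), and in WT without replicates 2 and 4 it was 0.46 (adjusted p = 0.000121).

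Trap1 moved the other way, from 189 ± 5.21 to 157 ± 8.92 CPM in WT and from 200.4 ± 11.0 to 169 ± 11.6 CPM in KO (SD, n = 4). In fasted WT it had 147.5, 157.5, 169 and 154 CPM and in fasted KO 182, 175, 165 and 155 CPM, below the fed libraries of its genotype in every case. The log2 fold changes were -0.27 ± 0.067 (edgeR adjusted p = 0.00431) and -0.24 ± 0.066 (adjusted p = 0.00678), and without fasted WT replicates 2 and 4 the WT value was -0.26 (adjusted p = 0.0384).

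Lonp1 fell by 0.53 ± 0.11 on the log2 scale with fasting in KO (edgeR adjusted p = 0.000542), where the fed and fasted ranges were separate, while it still stood above every WT library. In WT its log2 fold change was -0.24 with an adjusted p of 0.0918, and it was -0.30 (adjusted p = 0.112) without replicates 2 and 4. Hspa9 had a positive value in WT (0.19, adjusted p = 0.101) and a negative one in KO (-0.19, adjusted p = 0.0929), neither of which passed. Hspa9 and Hspd1 were separate between fed and fasted WT without passing the test, Hspd1 at 0.18 (adjusted p = 0.111). In a fit of the 8 WT libraries alone both passed, Hspa9 at 0.21 (adjusted p = 0.0428) and Hspd1 at 0.20 (adjusted p = 0.0429). Hspa9 passed in KO without fed KO replicate 2 (-0.24, adjusted p = 0.0381), without fasted KO replicate 4 (-0.26, adjusted p = 0.0234) and with library totals alone (-0.26, adjusted p = 0.0272).

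The other members did not pass in either genotype on fasting. Clpp came closest in WT (0.23, edgeR adjusted p = 0.0531), where replicate 1 at 31.5 CPM lay inside the fed range and the other fasted libraries above it. Without that library the value was 0.31 (adjusted p = 0.00943), without fed WT replicate 4 it was 0.27 (adjusted p = 0.0458), and without fasted WT replicates 2 and 4 it was 0.13 (adjusted p = 0.412). It also passed in the WT libraries alone (0.25, adjusted p = 0.0493) and with DESeq2 size factors (0.25, adjusted p = 0.0413). Clpx had -0.27 in WT (adjusted p = 0.140) and 0.13 in KO (adjusted p = 0.472), and without fasted WT replicate 3 the WT value was -0.46 (adjusted p = 0.00360). Hspe1, Htra2 and Yme1l1 had values between -0.13 and 0.15 in both genotypes, and Hspd1 had -0.05 in KO (adjusted p = 0.697).

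Whether the genotype difference itself changed with feeding was tested as an interaction, fasted minus fed. None of the 10 genes passed edgeR's test at an adjusted p under 0.05, 1 had an unadjusted p under 0.05, and 1.70% of all genes were called. That gene was Hspa9, whose genotype difference was smaller in fasted than in fed liver by 0.38 ± 0.12 on the log2 scale (adjusted p = 0.129). The Wald test of DESeq2 called 1 member, also Hspa9, at -0.40 (adjusted p = 0.0431). The interaction estimates of Lonp1 (-0.30 ± 0.15, edgeR adjusted p = 0.322), Hspd1 (-0.23, adjusted p = 0.351) and Hspe1 (-0.28, adjusted p = 0.393) had the same sign and did not pass. Clpx had 0.40 ± 0.19 (adjusted p = 0.301), and without fasted WT replicate 3 it had 0.59 (adjusted p = 0.0485).

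Ratios of 2 members within a library do not depend on how libraries are scaled to each other. The log2 ratio of Lonp1 to Clpp counts, the 2 matrix proteases, lay between 1.88 and 2.10 in fed WT and between 3.29 and 3.89 in fed KO, a difference in means of 1.70. In fasted liver it lay between 1.37 and 1.58 in WT and between 2.89 and 3.02 in KO, a difference of 1.5. The mean ratio was lower after fasting in WT (-0.46) and in KO (-0.66), and the ranges were separate in all 4 comparisons. The log2 ratio of Hspa9 to Hspd1 lay between 0.45 and 0.66 in fed WT and between 1.13 and 1.28 in fed KO (difference 0.64), and it differed by 0.49 in fasted liver. Yme1l1 to Afg3l2, the pair of inner membrane proteases, was lower after fasting by 0.50 in WT and by 0.55 in KO with separate ranges, and its genotype differences were -0.20 in fed and -0.25 in fasted liver. The partners Hspd1 and Hspe1 had a log2 ratio between 2.43 and 2.99 in all 16 libraries, with differences in means from 0.02 to 0.11 over the 4 comparisons (exact permutation p from 0.314 to 0.914). Clpx to Clpp differed by -0.01 between genotypes in fed liver and by 0.50 in fasted liver, where fasted WT replicate 3 (3.31) overlapped with the KO range and the other 3 WT libraries did not.

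The exact two-sided permutation test of a ratio, over all splits of 4 against 4 libraries, cannot give a p under 0.0286. That smallest value was reached in 9 of the 20 tests, and with Benjamini-Hochberg adjustment over the 20 it became 0.0635, so 0 ratios passed at 0.05. The 9 were all 4 comparisons of Lonp1 to Clpp, both genotype comparisons of Hspa9 to Hspd1, and the fasted genotype and both fasting comparisons of Yme1l1 to Afg3l2.

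**Figure D3:**
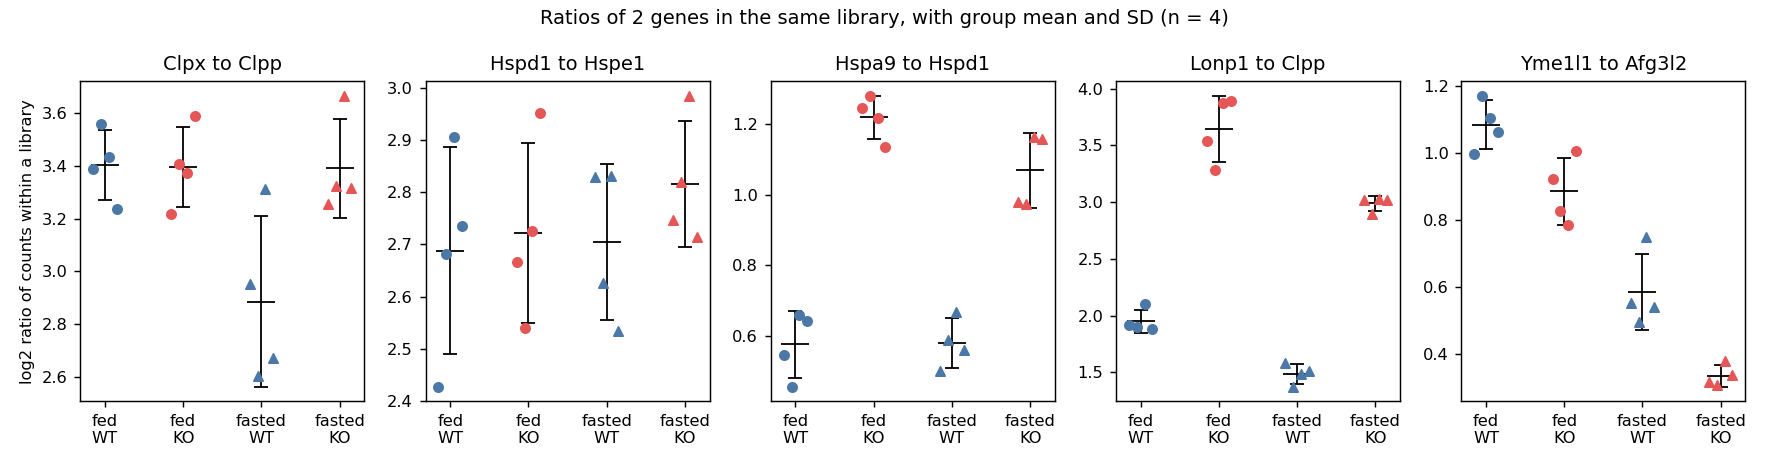
Log2 ratio of the counts of 2 members in the same library (vertical axis, not starting at 0), with 1 point per library and the group mean with its SD (n = 4). Lonp1 to Clpp and Hspa9 to Hspd1 are higher in both KO groups, Yme1l1 to Afg3l2 is lower in both fasted groups, and Hspd1 to Hspe1 overlaps in all groups.

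The scale on which libraries are compared mattered for the members with small differences. The TMM factors of WT libraries lay between 0.903 and 0.966, and those of KO libraries between 1.0 and 1.14. With library totals alone, the median log2 fold change of all genes was 0.21 between genotypes in fed and 0.20 in fasted liver, where it was near 0 with TMM. On that scale 7 of the 10 members were called higher in fed KO and 0 lower, beside 35.1% of all genes called higher. In fasted KO it was also 7 higher and 0 lower, beside 30.9% of all genes called higher. Lonp1 (1.87 fed, 1.55 fasted), Hspa9 (1.39, 0.98) and Hspd1 (0.75, 0.49) were called on both scales in both feeding states. Yme1l1 was at 0.0034 in fed liver on the scale of library totals (edgeR adjusted p = 0.972), so its call as lower in KO depended on the scale. Both scales are relative, and neither shows whether its amount fell. Afg3l2 was called higher with library totals in fed (0.20, adjusted p = 0.0157) and fasted liver (0.29, adjusted p = 0.00178). Trap1 was called higher on that scale in both feeding states, Htra2 in fed liver only, and Hspe1 (0.38, adjusted p = 0.0159) and Clpx (0.53, adjusted p = 0.00471) in fasted liver.

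**Figure D4:**
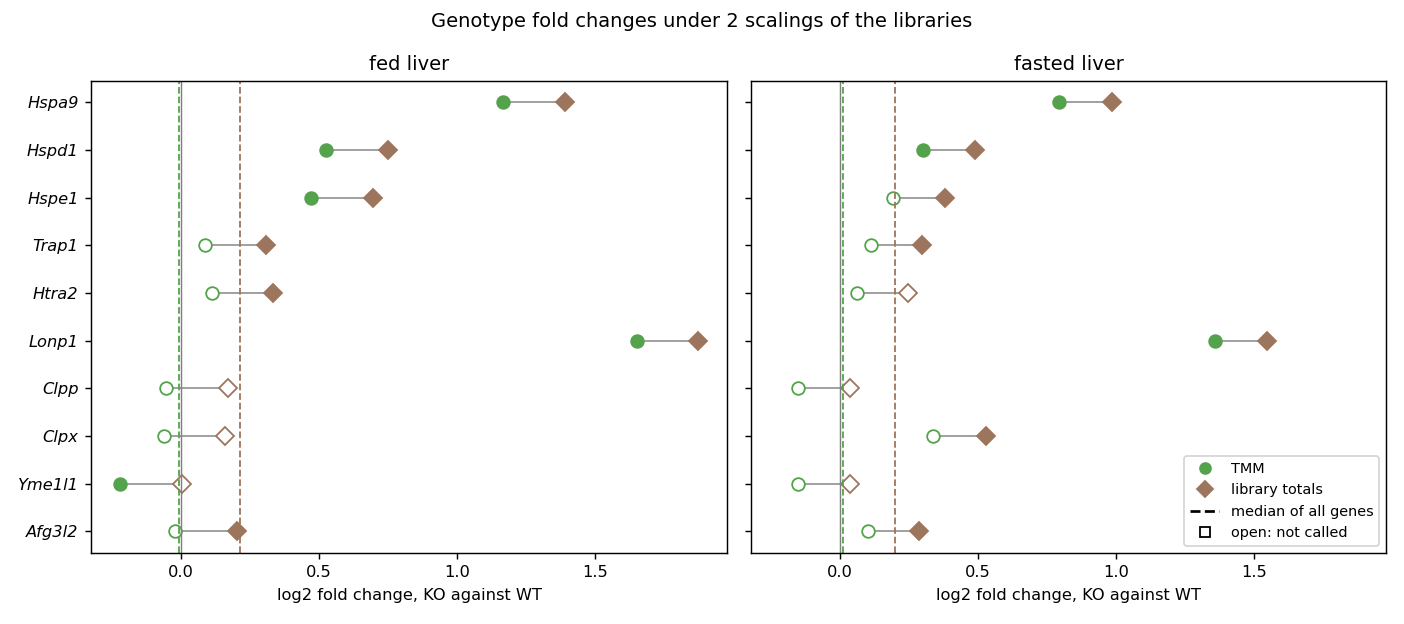
Log2 fold change of each member between KO and WT in fed (left) and fasted liver (right), with TMM (circles) and with library totals alone (diamonds); filled symbols were called at an adjusted p under 0.05, and dashed lines mark the median of all genes tested on each scale. Each member shifts to the right by about as much as the median of all genes does, and Lonp1, Hspa9 and Hspd1 stay to the right of both medians.

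Other genes of mitochondrial protein handling were read from lists written from general knowledge, but with earlier results of these data known. Of 9 cofactors of the matrix Hsp70, 2 were higher and 1 lower in fed KO, and 3 were higher and 1 lower in fasted KO. Among all genes the shares were 14.0% higher and 16.9% lower in fed KO, and 13.8% and 14.5% in fasted KO. Dnaja3, a DnaJ partner that stimulates Hspa9, rose from 108 ± 6.96 to 164 ± 10.2 CPM in fed liver (SD, n = 4; log2 fold change 0.60 ± 0.087, edgeR adjusted p = 4.51e-05) and differed by 0.77 in fasted liver (adjusted p = 3.98e-06). Dnajc19, a J protein of the import motor, fell by 0.34 (adjusted p = 0.00283) and 0.49 (adjusted p = 9.81e-05). Grpel1, the nucleotide exchange factor of Hspa9, passed in fed liver (0.15, adjusted p = 0.0474), and Timm44, which anchors Hspa9 at the pore (0.27, adjusted p = 0.00323), and Pam16 (0.38, adjusted p = 0.0405) passed in fasted liver. The median of this list was 0.12 in fed and 0.27 in fasted liver. With library totals alone, 6 members of this list were higher in each feeding state, and 1 was lower in fasted KO only, beside 35.1% (fed) and 30.9% (fasted) of all genes higher on that scale.

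Among 14 other mitochondrial proteases and peptidases, 3 were higher and 1 lower in fed KO, and 2 were higher and 1 lower in fasted KO, beside 14.0% of all genes higher and 16.9% lower, then 13.8% and 14.5%. Clpb, a disaggregase of the intermembrane space, had the smallest p of the list, at 40.5 ± 2.21 CPM in the fed WT group against 66.0 ± 7.40 CPM in fed KO (SD, n = 4; log2 fold change 0.70 ± 0.075, edgeR adjusted p = 1.85e-06) and a difference of 0.62 in fasted liver (adjusted p = 8.77e-06). Pitrm1, which degrades cut-off presequences, was higher in fed (0.23, adjusted p = 0.0167) and fasted KO (0.29, adjusted p = 0.00389). Afg3l1, the close relative of Afg3l2, was higher in fed KO (0.20, adjusted p = 0.0244), Immp2l, an inner membrane peptidase, was lower in fed KO (-0.33, adjusted p = 0.0113), and Lactb was lower in fasted KO (-0.25, adjusted p = 0.0131). The medians were 0.035 and -0.021, and with library totals alone 8 were called higher in fed and 5 in fasted liver and 0 lower, beside 35.1% and 30.9% of all genes higher. With fasting, 5 of the 14 were lower in WT and 7 in KO, beside 18.3% and 20.3% of all genes, and 0 were higher, beside 16.2% and 21.1%.

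Of 3 scaffold genes, Phb2 (0.38, edgeR adjusted p = 0.000201) and Phb (0.28, adjusted p = 0.0140), the prohibitins that form a ring around the inner membrane proteases, were higher in fed KO. In fasted liver they did not pass (0.10, adjusted p = 0.253, and 0.08, adjusted p = 0.518). Of 26 import genes tested (Tomm6 was not tested), 3 were higher and 1 lower in fed KO, and 5 were higher and 1 lower in fasted KO, at medians of 0.034 and -0.005. The share of all genes called higher was 14.0% in fed and 13.8% in fasted KO, and the share called lower was 16.9% and 14.5%. Timm50, the receptor of the inner membrane pore, was higher in both feeding states (0.31, adjusted p = 0.00591, and 0.26, adjusted p = 0.0167), as was Gfer (0.21, adjusted p = 0.0411, and 0.23, adjusted p = 0.0304). Tomm5 (0.48, adjusted p = 0.0103) was higher and Tomm40l (-0.57, adjusted p = 0.00163) was lower in fed KO. Timm10 (0.73, adjusted p = 0.000427), Chchd4 (0.58, adjusted p = 0.00122) and Tomm40 (0.36, adjusted p = 0.0228) were higher in fasted KO. Timm8b (-0.23, adjusted p = 0.00794) was lower there. With library totals alone 2 scaffold genes were called higher in each feeding state, and of the import genes 15 were higher in fed KO beside 1 that was lower, and 9 were higher in fasted KO beside 0 that were lower. All genes called higher on that scale made up 35.1% and 30.9%.

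Cytosolic chaperones were read beside the mitochondrial ones. Of 25, 8 were higher and 0 lower in fed KO, and 5 were higher and 0 lower in fasted KO, at medians of 0.17 and 0.16. All genes had 14.0% higher and 16.9% lower in fed KO, and 13.8% and 14.5% in fasted KO. Dnaja2, a cochaperone of cytosolic Hsp70 (0.48 fed, edgeR adjusted p = 5.67e-05; 0.44 fasted, adjusted p = 0.000122), and the ring subunits Cct2 (0.42 fed, adjusted p = 0.000133; 0.36 fasted, adjusted p = 0.000566) and Cct4 (0.40 fed, adjusted p = 0.000396; 0.34 fasted, adjusted p = 0.00155) were called in both states. Cct5 was called in fed (0.35, adjusted p = 0.00179) and Hsf1, the heat shock factor, in fasted liver (0.32, adjusted p = 0.0206). With library totals alone 16 and 11 were called higher, beside 35.1% and 30.9% of all genes. The estimates for Lonp1 and Hspa9 were above those of each of these 5 genes, a difference that was not itself tested. In the same list Hspa8 was called higher in fed (0.30, edgeR adjusted p = 0.0497) and fasted KO (0.32, adjusted p = 0.0385). Hsp90ab1 (0.38, adjusted p = 0.020), Tcp1 (0.31, adjusted p = 0.0105) and Cct7 (0.22, adjusted p = 0.0244) were called higher in fed KO only. Hspa1a, Hspa1b, Dnajb1, Hspb1, Hsp90aa1 and Bag3 were among those not called in either feeding state. Their standard errors in fed liver were wide, from 0.22 (Hsp90aa1) to 0.63 (Hspa1b).

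Of 16 genes around the factor ATF4, not all of them regulators, 10 were higher and 2 lower in KO in each feeding state. The medians were 0.49 and 1.05. Of all genes, 14.0% were higher and 16.9% lower in fed KO, and 13.8% and 14.5% in fasted KO. Atf4 itself was higher in fed (0.43, edgeR adjusted p = 0.00286) and fasted KO (0.73, adjusted p = 2.60e-05). Atf5, a factor linked to the mitochondrial stress programme, rose from 127.5 ± 8.05 to 527 ± 35.05 CPM in fed liver (SD, n = 4; log2 fold change 2.05 ± 0.12, edgeR adjusted p = 1.83e-09) and differed by 1.68 in fasted liver (adjusted p = 1.06e-08). Asns (3.81, adjusted p = 6.59e-06), Nupr1 (4.51, adjusted p = 3.88e-05) and Trib3 (3.12, adjusted p = 9.22e-05) were also named by the rule in fed liver. In fasted liver it named Cebpg (1.12, adjusted p = 3.71e-07), Nupr1 (5.69, adjusted p = 5.41e-06) and Atf3 (4.27, adjusted p = 6.69e-06). With library totals alone the counts were 11 higher and 1 lower in each state, where 35.1% (fed) and 30.9% (fasted) of all genes were higher.

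**Figure D5:**
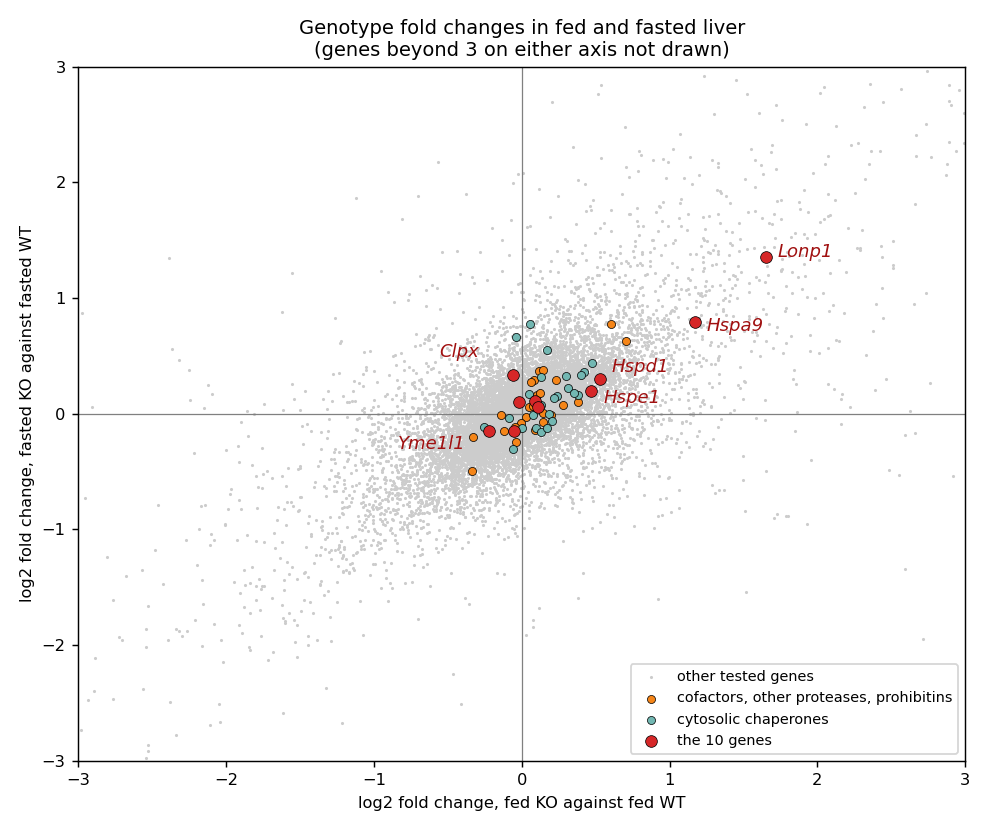
Log2 fold change between KO and WT in fed liver (horizontal axis) against that in fasted liver (vertical axis) for the genes tested within the axes (grey), the mitochondrial cofactors, other proteases and scaffolds (orange), cytosolic chaperones (teal) and the 10 members (red). Lonp1 and Hspa9 lie apart from the other members, which lie within the central cloud.

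Genes with the most similar pattern over the 16 libraries were found by the root mean square difference of log2 CPM after centring each gene on its own mean, for the members called between genotypes with a log2 fold change of at least 0.5. For Lonp1 they were Rpl13a (0.17), a ribosomal protein gene with copies elsewhere in the genome that make its count uncertain, Ank (0.21), a membrane protein involved in pyrophosphate export, and Bri3bp (0.22). For Hspa9 they were Gas5 (0.10), a noncoding host of small nucleolar RNAs, Lrrc28 (0.15) and Ybx3 (0.15), a Y-box binding protein. For Hspd1 they were Stt3b (0.079), a subunit of the N-glycosylation enzyme, C1qbp (0.084), a protein of the matrix, and Btf3 (0.094), part of a complex that binds new chains at the ribosome. The nearest member was Hspa9 for Lonp1 (0.34), Hspd1 for Hspa9 (0.30) and Hspe1 for Hspd1 (0.15). The spread of these genes around their own means was 0.79 for Lonp1, 0.51 for Hspa9 and 0.24 for Hspd1 on the same measure. The pool outside the list is far larger, so its closest genes and the closest member are not comparable.

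Markers of stellate cells, which store vitamin A and can lay down collagen, differed between genotypes. The sum of 8 stellate cell markers ran from 320 to 381 CPM in fed WT, 469.8 to 530.2 CPM in fed KO, 324 to 395 CPM in fasted WT and 416 to 508 CPM in fasted KO. Of the 8, 6 were called higher in fed KO and 4 in fasted KO, and none was at 0 in any group. Of 10 hepatocyte markers, 1 was higher and 5 were lower in fed KO, and 1 was higher and 4 were lower in fasted KO. Of all genes, 14.0% were higher and 16.9% lower in fed KO, and 13.8% and 14.5% in fasted KO. The sums of 6 endothelial markers (248 to 295 CPM) and of 6 macrophage markers (227 to 403 CPM) overlapped between all 4 groups. Of 16 pancreatic markers tested, 6 were lower in fasted KO than in fasted WT, where 2 of the WT libraries carried them, and 13 of 18 were at 0 in all fed WT libraries. The part of the stellate cell markers in the genotype differences of Lonp1, Hspa9, Hspd1 and Hspe1 was not tested.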

How the data were processed

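Livers were frozen, RNA was taken up in Trizol, and stranded mRNA libraries were prepared with TruSeq reagents (labels' protocols). The deposited counts are whole numbers of reads per gene, not normalized by the authors. Per the submitters' processing notes, cutadapt 1.8, STAR 2.5.3a and HTSeq 0.9.1 were used with build GRCm38. The strand setting is not given in the sources used here. The table holds 53714 genes, of which 53619 were found in GENCODE M21, and 5 summary lines that were left out of totals and tests. Those lines hold 32.0% to 45.8% (aligned to several places), 2.98% to 4.29% (no gene) and 1.05% to 1.65% (more than 1 gene) of all counts per library.

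Groups came from the labels. Genes were filtered with filterByExpr, scaled by TMM and fitted with 1 coefficient per group over 16 libraries in edgeR 4.0.16 (R 4.3.3), using the quasi-likelihood F test with robust estimation and Benjamini-Hochberg adjustment over 13905 genes. A standard error was computed from each F value, as the fold change (log2) over the root of F. Log2 ratios within a library used counts plus 0.5 and an exact two-sided permutation test. Annotation, exon lengths and transcripts came from GENCODE M21, and promoters from RefSeq.

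The members and lists were chosen with earlier results of these data known. All 10 members are named, with up to 4 called genes of each other list with the smallest p in each genotype comparison, and the 3 genes nearest in pattern. Atf4, Tomm40, Hspa8, Hsp90ab1, Tcp1, Cct7 and some, not all, of the cytosolic chaperones that were not called are named outside this rule. Alternatives were DESeq2 size factors, library totals alone, no filter on low counts, a replicate block, an adjusted p under 0.01, no robust estimation, the compared groups alone, the DESeq2 1.42.0 Wald test, 5 added to each count for ratios, fasted WT libraries 2 and 4 left out, and each library left out in turn. The procedure was tested on simulated data for the fed genotype comparison with 13464 genes. It found 28 of 67 genes with a 1.5-fold difference, 60 of 67 with a 2-fold and 63 of 66 with a 4-fold difference, beside 13 genes without one. Only these genes were changed, in random directions, while 30.9% of all genes were called in the real comparison. The simulation therefore cannot speak to the scaling of libraries or to calls that depend on it.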

Additional observations from a re-analysis of the deposited data

Results flagged for a closer look

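In 60 groups of 4 libraries (10 genes and 5 ratios in 4 groups each), 7 had a library far from the other 3 by Dixon's criterion, where chance flags about 1 in 20 groups. Clpx in fasted WT replicate 3 was 389.6 CPM against 243 to 263 CPM in the other 3, which touches the Clpx results for fasted liver. Hspd1 in fasted KO replicate 4 was 533.7 CPM against 473 to 482 CPM. Trap1 in fed WT replicate 1 was 180.9 CPM against 190.4 to 192 CPM, and Afg3l2 in fed WT replicate 3 was 56.94 CPM against 60.9 to 61.4 CPM. The log2 ratio of Clpx to Clpp in fasted KO replicate 3 was 3.666 against 3.255 to 3.324. The log2 ratio of Lonp1 to Clpp in fed WT replicate 3 was 2.101 against 1.883 to 1.919. In fasted KO replicate 2 the same ratio was 2.894 against 3.022 to 3.025.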

How the results depend on the processing

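Lonp1 and Hspa9 were called higher in KO in both feeding states under every alternative run, at log2 fold changes from 1.59 to 1.87 (Lonp1, fed), 1.27 to 1.55 (Lonp1, fasted), 1.13 to 1.39 (Hspa9, fed) and 0.72 to 0.98 (Hspa9, fasted). Among alternative values of the members' fold changes, 850 kept their direction and side of the threshold, and 19 changed sign. Of those that kept their sign, 25 passed only in the alternative and 6 only in the reported fit. The 19 include 2 values for fed liver with library totals alone that also crossed the threshold. Afg3l2 passed there (0.20, edgeR adjusted p = 0.0157), and Yme1l1 lost its call (0.0034, adjusted p = 0.972). All 210 alternative values of the ratios kept their sign or stayed within the spread between libraries. Most of them could not have come out otherwise, so this count is no evidence that the ratios are robust. Leaving libraries out of a group of 4, as done here, cannot move its mean by as much as its SD. The replicate block leaves a difference in means unchanged. The larger addition to each count was not bound in this way, and every difference kept its sign with it.

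With library totals alone, signs changed for Clpp (0.17 fed, 0.036 fasted), Clpx (0.16 fed), Yme1l1 (0.0034 fed, 0.035 fasted, and -0.065 for fasting in KO), Afg3l2 (0.20 fed) and the interaction of Trap1 (-0.013). Every gene shifts with the scale by construction. In the fit of the compared groups alone Afg3l2 in fed liver was at 0.0 (adjusted p = 0.9999). Without the fasted WT libraries 2 and 4, the interactions of Clpp (0.0044) and Yme1l1 (-0.0073) and the fasting value of Yme1l1 in WT (0.022) changed sign. With single libraries left out, values ran from -0.12 to 0.029 for Hspd1 with fasting in KO, -0.049 to 0.064 for the interaction of Trap1, -0.10 to 0.013 for Htra2 with fasting in WT and -0.0098 to 0.052 for Yme1l1 with fasting in KO. The cause of these changes was not tested.

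At an adjusted p under 0.01, 2449 (fed genotype), 2332 (fasted genotype), 3114 (fasting in WT) and 23 genes (interaction) were called. The interaction called 72 genes without fasted WT libraries 2 and 4, 530 with the DESeq2 Wald test, and from 87 to 523 with single libraries left out. Members called came to 7 with library totals alone (fasted genotype), 4 with the replicate block and 5 in the compared groups alone (fasting in WT), and 1 with the DESeq2 Wald test and from 0 to 1 with single libraries left out (interaction).

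Of 24 same-numbered pairs of libraries, 3 had deviations correlated above 0.1 (range -0.17 to 0.25), so the numbers were not taken as pairs. The replicate block left the counts of all genes called between 218 (interaction) and 5826 (fasting in KO), and the fed genotype at 4340. It added the calls of Clpx in fasted KO (0.34, adjusted p = 0.0358) and of Lonp1 (-0.24, adjusted p = 0.0248) and Clpp (0.23, adjusted p = 0.0398) with fasting in WT. Counting depth limits Htra2, with 3651 counts over 16 libraries, more than the other members.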
